A study of Mus musculus with 13 samples.

Results

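The 8 libraries compared here came from control mice aged 88 weeks: 4 from aorta and 4 from gastrocnemius, a large calf muscle built mainly of fast fibres. They were chosen by their titles, which name the tissue and the Rosa26 control group, out of 13 libraries in all. Every control mouse carried the genotype label GFP-FOXM1dNdK-/-Rosa26-rtTAtg/+ on the mixed strain FVBxC57BL/6, so aorta and muscle donors shared the Rosa26-rtTA allele, a tetracycline-controlled activator placed at a locus that most cells express, and neither group was without it. The other 5 libraries, from mice whose label reads GFP-FOXM1dNdKtg/+, were not used except in 1 alternative fit. Tissue was snap-frozen, and 10 ng of total RNA was reverse transcribed and amplified for 12 cycles with a primer pool that reads 1 short stretch per targeted transcript. Which segment of the aorta was taken, and whether the fat around it was removed, is not given in the sources used here, nor is the sex of the mice or any doxycycline treatment. Nothing in the labels says that the 4 libraries of a tissue came from separate animals, so p-values measure the spread between these samples.

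As background, the aorta is a tube of smooth muscle and elastic sheets lined by endothelium, and in mice the thoracic aorta lies in fat that resembles brown fat. Brown fat burns fatty acids in dense mitochondria and releases the energy as heat through the uncoupling protein Ucp1, and it also makes and stores triglyceride. A skeletal muscle fibre instead spends ATP on myosin and on pumping calcium, and in fast fibres much of that ATP comes from glycogen and phosphocreatine. The labelled tissues were checked against marker genes fixed for each cell type, as the plot of marker genes shows.

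The gene counts summed to between 3919526 and 12399087 per aorta library and between 7436030 and 13123246 per muscle library. The 10 most-read genes held 9.32% to 14.6% of aorta counts and 28.2% to 31.6% of muscle counts. Levels are therefore given as counts per 1000000 counts after TMM scaling (CPM), with factors of 1.19 to 1.45 in aorta and 0.72 to 0.76 in muscle. An amplicon's yield differs between genes, so levels are compared between tissues for 1 gene and not between genes. Across all genes tested, log2 CPM of libraries of 1 tissue correlated at 0.90 to 0.972 within aorta and 0.954 to 0.974 within muscle, and at 0.570 to 0.680 between the tissues. The first principal component held 80.7% of the variance and separated the tissues. The second held 9.13% and set aorta libraries 1 and 2 and muscle libraries 2 and 3, in which 48.4% to 49.3% of reads lay on the first strand, apart from the other 4, with 46.3% to 47.5%. Both tissues have 2 libraries on each side of that split. In libraries of whole tissue, fewer cells of a type and less RNA per cell cannot be told apart.

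Heart muscle genes stood apart in 2 aorta libraries. Myh6, the myosin of the atrium and adult mouse ventricle, read 664, 273, 1.51 and 0 CPM in aorta libraries 1 to 4, and Tnni3, the heart troponin I, 287, 124, 2.16 and 0.214 CPM. Actc1, the heart actin, read 984, 428, 3.75 and 0.428 CPM, so aorta libraries 1 and 2 were far above 3 and 4 for all 3 genes. The same 2 libraries were high for genes that heart shares with skeletal muscle. Ckm read 34, 18.8, 0.216 and 0.214 CPM in aorta, and Mb, encoding myoglobin, 455, 284, 27.3 and 4.49 CPM. Fast fibre genes were mixed. Myh4 read 0.524, 0.84, 0.865 and 1.5 CPM and Actn3 0.374, 0.392, 0.577 and 0.642 CPM in the same libraries, with no such split, but 13 of 28 fast fibre genes were higher in both of libraries 1 and 2 than in either of 3 and 4, among them Eno3, Pygm, Pfkm and Tpm1, which heart also uses. The share of all genes with this split is not given here, and the second principal component parts the same aorta libraries. The count of 13 therefore does not set fast fibre genes apart. The lists and genes most affected by these 2 libraries are given also without them. Libraries 1 and 2 are also the aorta libraries with the higher first-strand share, and leaving them out keeps only libraries 3 and 4 for aorta. Heart muscle RNA and the first-strand split therefore cannot be told apart in those values. Of the other log2 fold changes below, leaving out aorta libraries 1 and 2 moved by over 1.5 times those of Acta1 (to -15.55), Atp2a1 (-17.06), Clcn1 (-12.23), Scn4a (-10.91) and Tbx15 (-11.37).

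**Figure D1:**
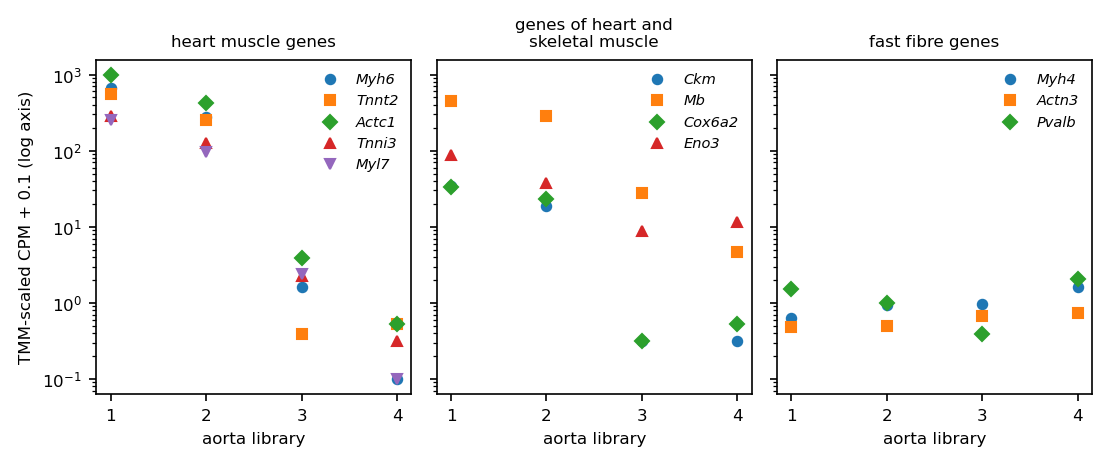
Levels of heart muscle genes, of genes used by both heart and skeletal muscle, and of fast fibre genes in the 4 aorta libraries (TMM-scaled CPM plus 0.1, log axis; each point is 1 library). In aorta libraries 1 and 2, Myh6 stood at 664 and 273 CPM against 1.51 and 0 in the other two, whereas Myh4 ranged from 0.524 to 1.5 CPM in all 4.

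Of the 19838 genes in the tables, 19636 matched a RefSeq symbol, and 0 of these lay on the X, Y or mitochondrial chromosome. The shares and lists below therefore leave out genes there, such as the respiratory chain subunits encoded in mitochondria. Of the 19838 genes, 11058 had enough counts to be tested. A gene is called where its Benjamini-Hochberg adjusted p in edgeR's quasi-likelihood test, taken over those 11058 genes, was under 0.05. In all 6462 genes (58.4%) were called, 3424 (31.0%) higher in aorta and 3038 (27.5%) higher in muscle. At least 4-fold apart were 1349 genes (12.2%) higher in aorta and 931 (8.42%) higher in muscle. The 2 groups of libraries did not overlap for 52.8% of genes tested. These shares are the background for every count that follows, and the median log2 fold change of all genes tested was 0.08, where a positive value means higher in aorta. Scaled by library size alone, that median would move up by 0.88, and 6254 genes would be called higher in aorta against 1298 higher in muscle. With upper-quartile factors the split would be 4142 and 2404. A difference of less than about 1 log2 unit can therefore turn with the scaling, and the lists described below whose balance or median turns are given under library size alone too.

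**Figure D2:**
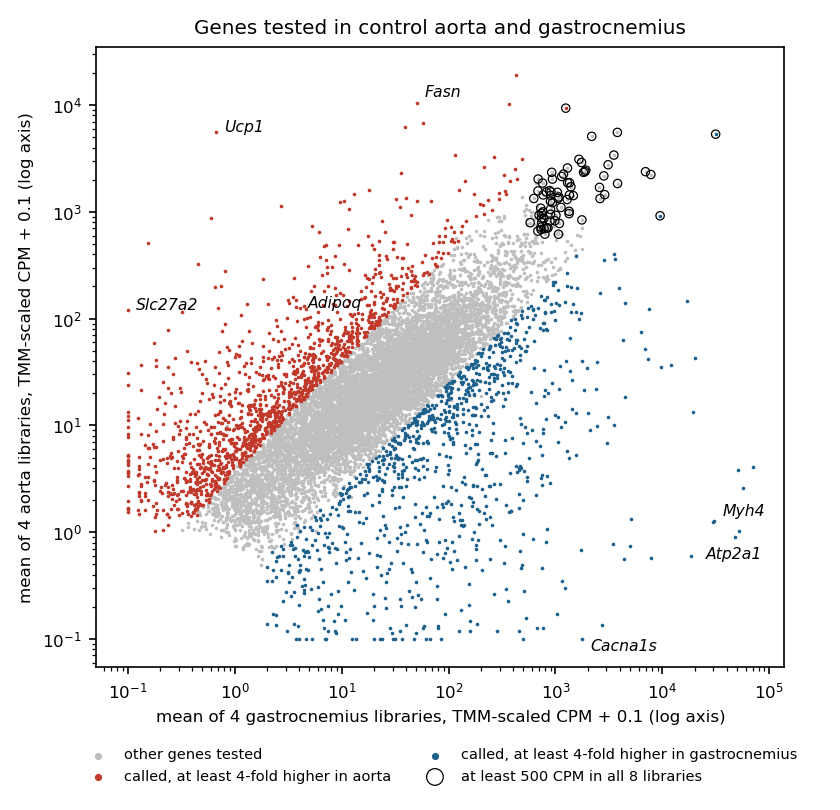
Mean level of each of the 11058 genes tested, in 4 gastrocnemius libraries (x) and 4 aorta libraries (y), both in TMM-scaled CPM plus 0.1 on log axes. Coloured points are called and at least 4-fold apart (1349 higher in aorta, 931 higher in gastrocnemius); circles mark 70 genes with at least 500 CPM in all 8 libraries.

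The widest gaps in favour of muscle lay in the contractile and calcium genes of the fast fibre. Myh4, the fastest myosin heavy chain, read 59514, 45123, 45703 and 59154 CPM in muscle libraries 1 to 4 and 0.524 to 1.5 CPM in aorta (log2 fold change -15.87, SE 0.49, adjusted p = 1.4e-08). Tnnt3, the fast troponin T, read 68009, 73156, 74657 and 65585 CPM against 3.39 to 4.56 CPM (log2 fold change -14.13, SE 0.37). Acta1, the skeletal alpha-actin of the thin filament, read 57379.6, 57695, 52097 and 59981 CPM against 0.721 to 5.09 CPM (log2 fold change -14.44, SE 0.72). For these 3 genes no library of one tissue came near any of the other. Of 27 fast fibre genes tested, 26 were called higher in muscle, where 27.5% of all genes tested were, and 1 higher in aorta, with a median log2 fold change of -11.92 (-10.52 with the 1 gene at 0 in aorta, Smtnl1, set at its bound). Without aorta libraries 1 and 2 the count was 27 of 28 (median -12.11). The exception was Gpd1, the glycerol phosphate dehydrogenase that both fast fibres and fat cells use, which read 8035, 8367, 9351 and 11676 CPM in aorta and 1579, 1042, 883 and 1492 CPM in muscle. Of 40 sarcomere and Z disc genes, 37 were called higher in muscle, 1 higher in aorta (Pdlim5, 15.6 to 30.3 against 4.48 to 9.84 CPM) and 2 not called, with a median of -6.90. Ttn, the giant spring of the sarcomere, read 9039 to 11008 CPM in muscle and 85.9, 55.1, 0.505 and 0.428 CPM in aorta, with aorta libraries 1 and 2 above 3 and 4 (log2 fold change -8.08, and -14.30 without them). Neb, the thin-filament ruler of skeletal muscle, read 3316 to 5341 CPM against 0.214 to 0.673 CPM. Without aorta libraries 1 and 2, 38 of the 40 were called higher in muscle and the median fell to -10.56.

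The sequences just before the start of 4 muscle genes, 2 fat genes and 1 gene at a like level in both tissues are printed. Members of the muscle and fat groups differ between the tissues together, and a reader can compare what stands before their starts. The genes printed are examples and do not stand for their groups. All 4 muscle genes hold CAGCTG, which was found in 22.2% of the 300-base windows of genes at least 4-fold higher in muscle. Each is 120 bases ending at the base before the RefSeq transcription start, 5′ to 3′ on the gene's strand, GRCm38.p6. Capitals mark CAGCTG (an E-box letter string, the same on both strands), GGGCGG on either strand (a GC box; CCGCCC on the other) and TATAAA on the gene's strand.
Myh4, chr11:67237692-67237811, plus strand: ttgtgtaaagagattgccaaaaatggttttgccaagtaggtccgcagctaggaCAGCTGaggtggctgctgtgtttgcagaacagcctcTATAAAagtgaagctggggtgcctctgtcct
Mylpf, chr7:127211488-127211607, plus strand: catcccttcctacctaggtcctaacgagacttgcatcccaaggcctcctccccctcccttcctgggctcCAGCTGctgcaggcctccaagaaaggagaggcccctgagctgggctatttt
Atp2a1, chr7:126463074-126463193, minus strand: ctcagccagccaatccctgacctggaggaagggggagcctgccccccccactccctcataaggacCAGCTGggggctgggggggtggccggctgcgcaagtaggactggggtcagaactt
Chrna1, chr2:73580339-73580458, minus strand: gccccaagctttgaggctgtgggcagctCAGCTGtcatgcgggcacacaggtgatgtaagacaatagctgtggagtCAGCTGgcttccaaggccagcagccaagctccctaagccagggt
Adipoq, chr16:23146416-23146535, plus strand: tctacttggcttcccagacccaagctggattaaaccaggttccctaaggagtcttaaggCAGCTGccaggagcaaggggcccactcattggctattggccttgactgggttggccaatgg
Ucp1, chr8:83290228-83290347, plus strand: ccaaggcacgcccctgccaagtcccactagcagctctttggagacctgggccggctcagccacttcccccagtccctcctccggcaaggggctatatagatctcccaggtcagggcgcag
Cs, chr10:128337607-128337726, plus strand: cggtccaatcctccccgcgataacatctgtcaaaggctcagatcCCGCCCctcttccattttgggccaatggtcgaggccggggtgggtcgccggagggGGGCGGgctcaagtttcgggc

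In windows of 300 bases around the start (250 before, 50 after; 15669 genes have one), CAGCTG was found in 9 of 17 fast fibre genes (52.9%). It was found in 22.2% of genes at least 4-fold higher in muscle, 17.7% of those at least 4-fold higher in aorta and 15.4% of all windows. Adipoq holds it too. TATAAA in the 50 bases before the start stood in 4.30% of the genes 4-fold higher in muscle, 2.67% of those 4-fold higher in aorta, 1.59% of windows of genes tested and 3.55% of all windows. In Myh4 it begins 31 bases before the start. GGGCGG was in 17.6% of fast fibre windows, 65.2% of windows of genes tested and 48.8% of all windows. A match of letters is a description of these windows and not a binding site.

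The genes that turn a nerve impulse into calcium release were higher in muscle without exception among those tested. All 28 tested were called, 24 at least 4-fold, with a median of -6.87 (25 of 28 were called under library size alone). Cacna1s, the voltage sensor of the transverse tubule, had 56056 counts over the 4 muscle libraries and no count in any aorta library, at least 29138-fold higher in muscle against a floor of 3 counts over the 4 aorta libraries. Jsrp1, a junctional protein of the sarcoplasmic reticulum, likewise had no count in aorta (at least 8155-fold higher in muscle). Ryr1, the release channel itself, read 2256 to 3273 CPM in muscle and had 2 counts in all of aorta, a ratio of 68119 in favour of muscle with a 95% counting interval of 18857 to 562490.0. Atp2a1, the fast-fibre calcium pump, read 50544, 48575, 41642 and 51927 CPM in muscle and 0.144 to 1.35 CPM in aorta (log2 fold change -15.85, SE 0.68). The calcium store protein Casq1 stood at 4347 to 6177 CPM against 0.642 to 2.69 CPM. The smallest differences of the group were in genes that many cells use: Fkbp1a (-0.50 log2), Asph and Orai1. Fkbp1a turns direction under library size alone (0.37).

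The junction with the motor nerve and the satellite cells, the stem cells of muscle, followed. Of 18 junction genes tested, 14 were called higher in muscle, 2 higher in aorta and 2 not called (median -4.18). Chrna1 and Chrne, subunits of the acetylcholine receptor at the junction, had no count in aorta and were at least 623-fold and at least 509.9-fold higher in muscle. Chrnb1 read 64.7 to 154 CPM in muscle and 7.28 to 14.2 CPM in aorta. The exceptions were Agrn, encoding agrin, a basement membrane protein of vessels as well as of the junction (12.9 to 26.8 against 1.68 to 6.95 CPM), and Utrn, encoding utrophin (47 to 78.8 against 12.1 to 21.9 CPM). Of 20 genes of satellite cells and muscle growth, 16 were called higher in muscle and 1, Vcam1, higher in aorta (median -6.53, or -6.23 with 2 members at their bound). Myod1, a master regulator of muscle fate, read 117, 50.3, 89.8 and 85.8 CPM in muscle and had no count in aorta (at least 1366-fold higher in muscle). Mstn, the growth inhibitor myostatin, read 116 to 202 CPM in muscle and 0 to 0.112 CPM in aorta. Trim63, an E3 ligase of muscle wasting, read 407 to 628 CPM against 0 to 10.3 CPM.

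Slow fibre genes gave no single direction. Of 14 tested, 5 were called higher in muscle and 2 higher in aorta, with 7 not called (median -1.08). Atp2a2, the calcium pump of slow fibres, heart and most other cells, read 1282, 591, 588 and 407 CPM in aorta and 94.2, 106, 105 and 120.5 CPM in muscle (log2 fold change 2.75, SE 0.34), higher in all 4 aorta libraries. Without aorta libraries 1 and 2 the list gave 10 of 15 higher in muscle and 1 higher in aorta, with a median of -3.44. Myh7, the slow myosin heavy chain, was not tested, and Tnni1 read 1.12, 10.2, 5.89 and 9.39 CPM in muscle. Of 17 heart muscle genes tested, 8 were called higher in aorta and 3 higher in muscle (median -0.13, or 0.75 with counts of 8 and 1 under library size alone), and without aorta libraries 1 and 2 the counts were 4 and 9 (median -2.08). The list names 36 genes, and the heart markers Myl7, Nppa and Tnni3 were among those not tested. These counts and medians therefore cover only part of the list. Myh6 (7.0 with all libraries) and Tnnt2 (5.17) were among those called higher in aorta; without those 2 libraries their values were -1.01 and -4.03. Gja1, encoding connexin 43, was higher in each aorta library than in any muscle library (440.4, 292, 619 and 755 against 16.5 to 46.6 CPM). Its level did not follow Myh6.

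**Figure D3:**
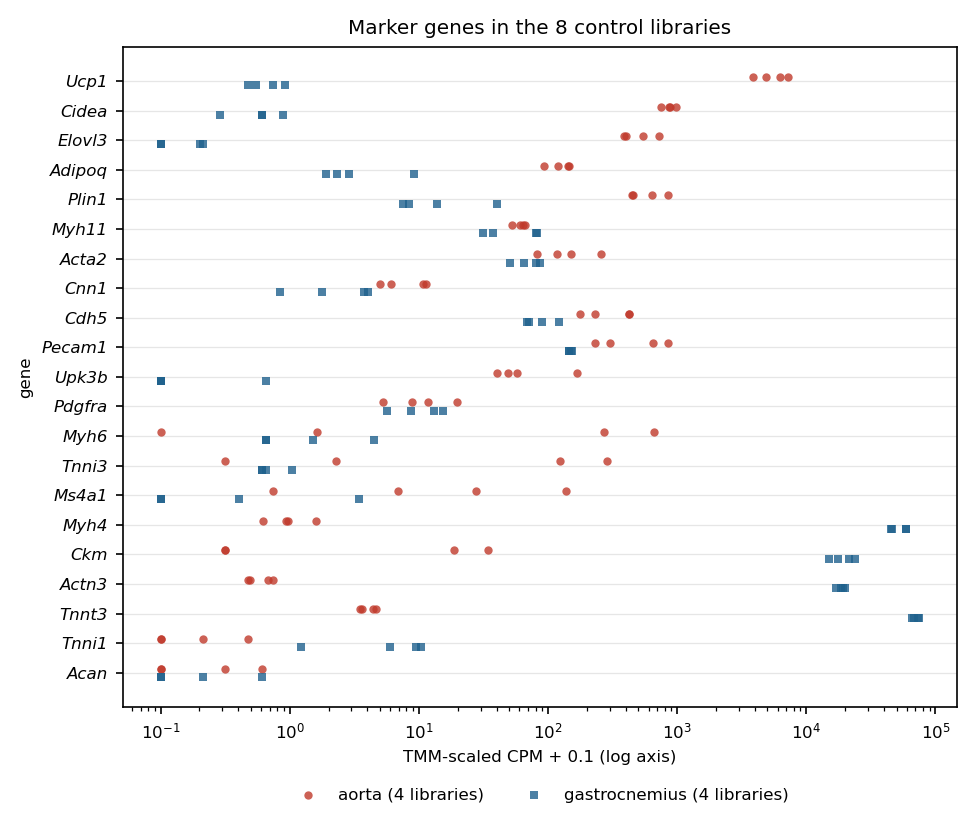
Marker genes of fat, smooth muscle, endothelium, mesothelium, fibroblast, heart, B cell, fast and slow fibre and cartilage in the 8 control libraries (TMM-scaled CPM plus 0.1, log axis; each point is 1 library). Ucp1 lies at 3837 to 7230.2 CPM in aorta and 0.373 to 0.812 CPM in muscle, Myh4 at 0.524 to 1.5 and 45123 to 59514 CPM, and Myh11 overlaps between the tissues.

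Fat genes set the aorta apart. Ucp1 read 4830.2, 3837, 7230.2 and 6255 CPM in aorta libraries 1 to 4 and 0.373 to 0.812 CPM in muscle (log2 fold change 13.17, SE 0.44, adjusted p = 2.1e-08). Cidea, a lipid droplet protein of brown fat, read 860.4, 977, 751 and 878 CPM against 0.187 to 0.784 CPM (log2 fold change 10.66, SE 0.35). Elovl3, a fatty acid elongase induced in brown fat by cold, read 720.2, 539, 399 and 389 CPM, with 2 counts in all of muscle, a ratio of 8528 in favour of aorta with a 95% counting interval of 2360.5 to 70420.3. All 4 aorta libraries were high for these 3 genes, and Elovl3 was higher in libraries 1 and 2 than in 3 and 4. Of 23 brown fat genes tested, 19 were called higher in aorta, none higher in muscle and 4 not called (median 2.88). Those not called were Fgf21, Ppargc1a, Cox7a1 and Pdk4. Ppargc1a, the coactivator that drives mitochondrial growth in both brown fat and muscle, read 31.1 to 90.1 CPM in aorta and 77.7 to 150.3 CPM in muscle. Otop1, a proton channel gene, read 209, 254, 283 and 541 CPM in aorta and 0 to 0.609 CPM in muscle.

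General fat cell genes moved the same way. Of 28 tested, 25 were called higher in aorta, 1 higher in muscle (Agt, 0.144 to 0.56 against 2.42 to 7.31 CPM) and 2 not called (median 3.36). Adipoq, encoding adiponectin, read 119, 93.7, 144 and 144 CPM in aorta and 2.8, 9.08, 2.23 and 1.8 CPM in muscle (log2 fold change 4.95, SE 0.49). Plin1, which coats the lipid droplet, read 451, 454, 634 and 849.9 CPM against 13.8, 40.0, 8.32 and 7.46 CPM. In muscle both were highest in library 2, as were Cidec (29.7, 70.6, 11.2 and 16.2 CPM) and Pparg further on, and in aorta no library stood apart to the same extent. Fabp4, the fatty acid carrier of fat cells and capillaries, read 8901, 10187, 9623 and 12061 CPM against 268, 489, 455 and 247 CPM (log2 fold change 4.80, SE 0.32). The members not called were Plin4 and Car3, a carbonic anhydrase abundant in fat and in muscle, at 1848 to 4876 CPM in aorta and 1681 to 4929 CPM in muscle.

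Genes that make fatty acid and triglyceride had the highest median of the aorta programmes apart from the lymphocyte list. Of 28 tested, 25 were called higher in aorta, 18 of them at least 4-fold, and none higher in muscle (median 3.73). Fasn, fatty acid synthase, read 8012, 10929.6, 4889 and 17926 CPM in aorta and 22.9, 86.6, 62.6 and 28.8 CPM in muscle (log2 fold change 7.70, SE 0.64). Scd1, which desaturates the product, read 15561, 16309, 7290.3 and 37034 CPM against 244, 968, 337 and 145 CPM (log2 fold change 5.49, SE 0.73). Within aorta these genes varied more than the thermogenic ones: the summed level of the list ran from 26124 to 77368 CPM, with library 4 highest, whereas that of the brown fat list ran from 15769 to 20362 CPM. Acly, which supplies the acetyl group, read 1130.4, 1629, 613 and 1729 CPM against 5.6 to 14.7 CPM, and Slc25a1, the citrate carrier, 823, 964, 192 and 599.6 CPM against 2.24 to 10.3 CPM. Gpam (199 to 378 against 183 to 435 CPM) and Lpin1 (322 to 762 against 369 to 909 CPM), enzymes of glycerolipid synthesis present in both tissues, were not called.

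Genes of the vessel itself separated the tissues less. Endothelial genes were higher in aorta in 25 of 27 tested, with none higher in muscle, but the median was 1.46 and 6 were at least 4-fold apart. Cdh5, the endothelial cadherin, read 233, 178, 423 and 427 CPM in aorta and 70.5, 89.4, 121 and 69 CPM in muscle (log2 fold change 1.85, SE 0.32). Kdr, the main receptor for vascular growth factor, read 155, 129, 257 and 228 CPM against 19.4, 32.7, 49.2 and 27.7 CPM (log2 fold change 2.57, SE 0.33), and Gpihbp1, which holds lipoprotein lipase on capillaries, 124, 148, 326 and 314 CPM against 40.8, 46.1, 54.6 and 46.6 CPM. The groups did not overlap for any of the 3. Plvap and Lyve1 were not called.

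Smooth muscle genes gave no single direction. Of 25 tested, 9 were called higher in aorta, 6 higher in muscle and 10 not called (median 0.71, or 1.58 with counts of 16 and 6 under library size alone). Myh11, the smooth muscle myosin, read 52.4, 64.5, 65.8 and 61 CPM in aorta and 37.1, 81.8, 80.9 and 31 CPM in muscle and was not called (log2 fold change 0.08, SE 0.31, adjusted p = 0.849); its 2 groups overlap, and under library size alone its value was 0.94. Acta2, smooth muscle actin, was called higher in aorta at 82.7, 118, 256 and 151 CPM against 65.5, 80.1, 86.9 and 50.7 CPM (log2 fold change 1.10, SE 0.33). Itga8, an integrin of vascular smooth muscle, read 4.94 to 43.8 against 1.29 to 3.7 CPM, and Cspg4, a pericyte proteoglycan, 23.7 to 57.3 against 6.5 to 11.7 CPM. The 6 higher in muscle were Tpm2, Tpm1, Des, Synpo2, Mustn1 and Smtn, of which Tpm1, Tpm2 and Des also build the striated sarcomere. Tagln, listed as a marker, read at most 0.056 CPM in aorta and was not tested.

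Of 28 genes of elastic fibre and wall matrix, 14 were called higher in aorta, 2 higher in muscle and 12 not called (median 0.67). Mgp, the matrix inhibitor of calcification, read 676, 421, 1618 and 560.0 CPM in aorta and 148, 139, 196 and 96.5 CPM in muscle. Eln, encoding elastin, read 24.2, 37, 43.2 and 24.8 CPM against 14.7, 17.1, 12.3 and 6.05 CPM (log2 fold change 1.37, SE 0.33). The 2 higher in muscle were Comp and Fmod, which tendon also makes. Among 27 collagen genes 6 were called higher in aorta and 2 higher in muscle (14 and 2 under library size alone). Col4a1 of the basement membrane read 176 to 339 against 63 to 149.7 CPM, and Col22a1, a collagen of the muscle-tendon junction, 0 to 0.428 against 17.3 to 127 CPM. Col1a1 was not called (91.3 to 259 against 104 to 592 CPM).

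Mesothelial genes were read in aorta and almost not in muscle. Of 21 fibroblast and mesothelial genes tested, 10 were called higher in aorta, none higher in muscle and 11 not called (median 0.46). Those higher included mesothelial genes: Upk3b read 57.2, 48.8, 168 and 40.4 CPM and Msln 27.8, 19.2, 107 and 25.2 CPM in aorta, and Lrrn4 and Upk1b had no count in muscle (at least 346-fold and 264-fold higher in aorta). Aorta library 3 was the highest for all 4 of these genes. Of general fibroblast genes, Ly6a and Dpp4 were called higher in aorta (158 to 309 against 74.4 to 111 CPM and 12 to 66.8 against 3.55 to 12.9 CPM). Pdgfra was not called, at 5.19 to 19.7 CPM in aorta and 5.53 to 15.3 CPM in muscle, nor was Dpt (log2 fold changes 0.10 and -0.15, and -0.68 and -0.73 without aorta libraries 1 and 2). Genes of other cells differed too. All 10 B and T cell genes tested were called higher in aorta (median 4.34), but Ms4a1 read 27.4, 138, 6.85 and 0.642 CPM there, and without aorta libraries 1 and 2 the count was 3 of 10. Of 16 macrophage genes 13 were called higher in aorta (Lyz2, 419.6, 377, 309 and 187 against 52.4, 118, 59.9 and 124 CPM). All 8 cartilage and tendon genes tested were called higher in muscle, led by Thbs4 (0.428 to 1.5 against 46.3 to 76.3 CPM), while Acan was near 0 in both. Whether cells other than fibres and vessel wall account for any of the differences was not tested.

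**Figure D4:**
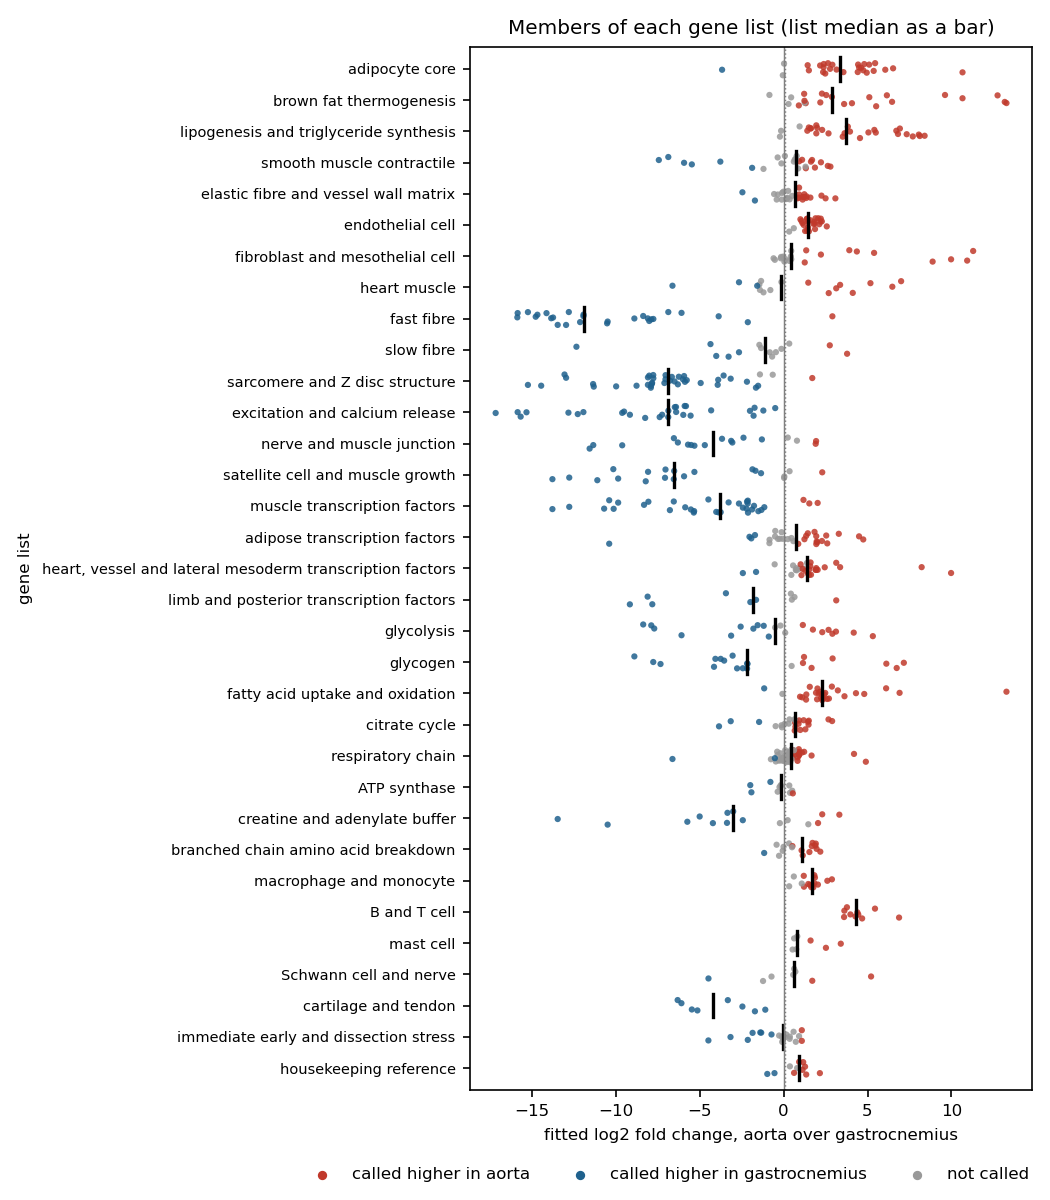
Fitted log2 fold change, aorta over gastrocnemius, of each tested member (points) of the gene lists with at least 7 tested members, with the list median as a black bar; red points are called higher in aorta, blue higher in gastrocnemius, grey not called, and the dotted line is the median of all genes tested (0.08). Medians run from -11.92 for fast fibre genes to 4.34 for B and T cell genes, and fat lists lie between 2.88 and 3.73.

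Transcription factors mirrored these programmes. Of 34 muscle factors tested, 31 were called higher in muscle and 3 higher in aorta (median -3.81). Myf6, the myogenic factor of adult fibres, read 346, 545, 532 and 393 CPM in muscle and had 1 count in aorta, a ratio of 23412 in favour of muscle with a 95% counting interval of 4201 to 924776. Tbx15, a T-box factor of trunk and limb muscle and of some fat depots, read 594, 437, 392.1 and 514 CPM in muscle and 0 to 0.642 CPM in aorta (log2 fold change -10.39, SE 0.56). Lbx1, a factor of limb muscle precursors, read 141.8 to 170.4 CPM against 0 to 0.214 CPM. Of the 3 factors higher in aorta, Tbx18, also a factor of the mesothelium and vessel wall, read 4.28 to 11.1 against 1.23 to 3.86 CPM.

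Of 30 adipose factors, 15 were called higher in aorta, 4 higher in muscle and 11 not called (median 0.73). Pparg, the master regulator of fat cells, read 214, 201, 143 and 242 CPM in aorta and 2.98, 12.9, 8.42 and 5.02 CPM in muscle (log2 fold change 4.74, SE 0.42), and Cebpa, its partner, 408, 300.5, 341 and 747 CPM against 17.3, 37.8, 11.3 and 13.1 CPM. Prdm16, a factor of brown fat identity, read 16.6 to 34.2 CPM against 0.933 to 5.78 CPM. Zic1 and Lhx8, factors of the classical brown depot between the shoulder blades, were too low to test. The 4 higher in muscle were Tbx15, Rxrg, Rxra and Zfp516. Of 30 factors of heart, vessel and lateral mesoderm, 19 were called higher in aorta and 2, Tbx1 and Tbx4, higher in muscle (median 1.42). Gata6, a factor of vessel smooth muscle, heart and mesothelium, read 10.7, 8.46, 15.7 and 3.42 CPM in aorta and 0.304 to 1.79 CPM in muscle. Tbx5, a factor of the forelimb and heart, read 22.9, 12.7, 10.2 and 8.35 CPM against 0 to 2.69 CPM. Tbx4, its hindlimb counterpart, read 0.28 to 1.59 CPM in aorta and 1.23 to 5.28 CPM in muscle.

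Hox genes mark position along the body, with low numbers towards the head and high numbers towards the tail. Of 39 measured, 18 were tested; 9 were called higher in aorta and 4 higher in muscle. Those higher in aorta included Hoxb2, Hoxb6, Hoxb4, Hoxb8 and Hoxb7, and the 4 were Hoxc11, Hoxa10, Hoxa9 and Hoxd8, so the called genes numbered 9 to 11 were all higher in muscle. Hoxb2 read 7.56, 8.06, 20.8 and 13.7 CPM in aorta and 2.24, 1.57, 1.12 and 1.42 CPM in muscle. Hoxa9 read 1.57, 3.81, 4.18 and 2.78 CPM against 35.6, 39, 38.3 and 22.6 CPM, and Hoxc11 had no count in aorta. Of 254 zinc finger genes named Zfp, 79 (31.1%) were called higher in muscle and 19 (7.48%) higher in aorta (median -0.50). Of all genes tested 27.5% and 31.0% were, so the muscle share was near the background and the aorta share was low. The balance turns under library size alone (22 and 77, median 0.38).

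Some channel genes differed widely between the tissues, in both directions. Of 41 potassium channel genes tested, 14 were called higher in aorta and 16 higher in muscle (22 and 14 under library size alone). Of all genes tested 31.0% and 27.5% were, so these counts do not set potassium channels apart as a family. Kcna7 read 208, 107, 121 and 182 CPM in muscle against 0 to 0.673 CPM in aorta. Kcnc4 read 59.1 to 113 CPM against 0.15 to 0.793 CPM. In the other direction, Kcns3 read 8.85 to 13.9 CPM in aorta and 0 to 1.79 CPM in muscle. Scn4a, the sodium channel of the muscle action potential, read 1189, 583, 617 and 952 CPM against 0.428 to 1.65 CPM (log2 fold change -9.62, SE 0.54). Clcn1, the chloride channel that steadies the fibre membrane, read 232 to 427 CPM against 0 to 1.12 CPM (log2 fold change -9.51, SE 0.69), and Ano5 239.7 to 372 CPM against 0 to 1.42 CPM. Another member of the same anoctamin family went the other way. Ano1, a calcium-activated chloride channel of smooth muscle, read 38.3, 52.3, 82.2 and 84.1 CPM in aorta and 5.97, 5.27, 8.42 and 9.78 CPM in muscle.

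Channels of the internal calcium stores split by tissue. All 10 release and store genes tested were called, 6 higher in aorta and 4 higher in muscle (4 and 4 without aorta libraries 1 and 2). Itpr2, a receptor for inositol trisphosphate, read 301, 240.3, 457 and 404 CPM in aorta against 20.6 to 22.6 CPM in muscle, and its relative Itpr1 114, 102, 104 and 105 CPM against 8.77 to 14.8 CPM. Ryr2, the heart release channel, read 16.9, 6.38, 1.8 and 1.28 CPM in aorta, highest where Myh6 was high, and 0 to 0.187 CPM in muscle, below each aorta library. Stim1 and Orai1, which refill the store, were higher in muscle (-2.0 and -1.73 log2). Of 16 sodium and calcium pump genes, 5 were called in each direction (8 higher in aorta and 4 higher in muscle under library size alone). Atp1b2, the main beta subunit of fast fibres, read 16.9 to 23.3 CPM in aorta against 578 to 914 CPM in muscle. Aqp7, the glycerol channel of fat, was higher in aorta (171, 139.8, 194 and 224 against 7.27, 22, 23.9 and 7.85 CPM), and Aqp4, the water channel of fast fibres, was higher in muscle (10.3 to 30.6 against 0 to 0.299 CPM).

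Of 35 adrenergic and other G protein-coupled receptor genes, 19 were called higher in aorta and 5 higher in muscle. Adrb3, the fat cell receptor for noradrenaline, read 106, 147, 139.6 and 167 CPM against 2.24, 8.96, 0.812 and 0.515 CPM, with no overlap between the tissues.

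Solute carriers were called higher in aorta in 89 of 197 tested and higher in muscle in 44, 45.2% and 22.3% beside 31.0% and 27.5% of all genes tested (132 and 28 under library size alone). Slc27a2, a fatty acid activating transporter, had 5617 counts over the aorta libraries and none in muscle, at least 1201-fold higher in aorta. Slc36a2, an amino acid carrier, read 959, 886, 1403 and 1703 CPM in aorta and 7.83, 18.5, 7.51 and 4.12 CPM in muscle. Slc16a3, which exports lactate, read 211, 238, 212 and 229 CPM in muscle and 0.599 to 2.57 CPM in aorta, while Slc16a1, the lactate carrier of oxidative cells, read 31.1 to 64.5 CPM in muscle and 109 to 323 CPM in aorta. The pair therefore differed in opposite directions. Slc2a4, the insulin-regulated glucose carrier of both fat and muscle, read 272, 208, 152 and 181 CPM in aorta and 469.7, 411, 535 and 431 CPM in muscle (log2 fold change -1.19, SE 0.22, -0.31 under library size alone).

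Sugar metabolism differed in which enzyme form was read. Of 21 glycolysis genes, 8 were called higher in aorta and 10 higher in muscle (median -0.51; 9 and 8 under library size alone, median 0.39). Pfkm, the muscle phosphofructokinase, read 4436, 4906, 4787 and 3107 CPM in muscle and 45 to 85.9 CPM in aorta, whereas Pfkl, the liver form, read 229, 362, 159 and 275 CPM in aorta against 3.47 to 8.21 CPM in muscle. The platelet form Pfkp went with Pfkl (143 to 215 against 6.34 to 13.1 CPM). Eno3, the muscle enolase, read 10352 to 14845 CPM against 87.8, 37.9, 8.8 and 11.3 CPM in aorta, where libraries 1 and 2 were highest (log2 fold change -8.37, and -10.29 without them). Ldha, which favours lactate, was higher in muscle (-1.80) and Ldhb, the form of oxidative tissue, higher in aorta (2.68). Hk2, the hexokinase of insulin-sensitive tissue, read 602, 587, 413 and 422 CPM in aorta and 424, 496, 426 and 548 CPM in muscle and was not called, while Hk1 was higher in aorta (24.2 to 55.6 against 2.98 to 5.92 CPM). Of 21 glycogen genes, 13 were called higher in muscle, all at least 4-fold, and 7 higher in aorta (median -2.18). Pygm, the muscle phosphorylase, read 19669.5, 23102, 17819.9 and 20144 CPM against 97.2, 37.7, 16.4 and 18 CPM (log2 fold change -8.89, and -10.24 without aorta libraries 1 and 2). The liver form Pygl read 635, 583, 621 and 1129.8 CPM in aorta against 4.06 to 7.06 CPM in muscle (log2 fold change 7.16, SE 0.35). The synthase pair ran alike, with Gys1 at 579 to 795 CPM in muscle against 93.8 to 195 in aorta and Gys2 at 62.6 to 129 CPM in aorta against 0.406 to 1.68 in muscle.

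Among the genes tested, those of fatty acid uptake and oxidation were higher in aorta almost throughout. Of 29 genes tested, 27 were called higher in aorta, 20 of them at least 4-fold, and 1, Ucp3, higher in muscle (median 2.30). The list names 35 genes, and the muscle forms Cpt1b and Fabp3 were among those not tested, whereas the fat form Fabp4 was counted. The balance therefore leaves out these muscle forms. Acaa2, the last step of the mitochondrial spiral, read 2236, 1972, 2885 and 3542 CPM in aorta and 213, 187, 226 and 235 CPM in muscle (log2 fold change 3.63, SE 0.25). Acadvl, the first, read 2601, 2220.4, 3689 and 4090.0 CPM against 594, 361, 409 and 577 CPM. Slc25a20, the acylcarnitine carrier, read 692, 479, 602 and 592 CPM against 72.4, 76.1, 83.4 and 90.3 CPM. Ucp3, the muscle relative of Ucp1, read 104, 104, 85.3 and 130.3 CPM against 289, 211, 170.2 and 273 CPM (log2 fold change -1.16, SE 0.22). Branched chain amino acid breakdown also leaned to aorta, with 10 of 17 called higher there and 1, Bckdk, the kinase that switches the pathway off, higher in muscle (173 to 365 against 421 to 647 CPM).

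The citrate cycle and the respiratory chain had medians nearer to that of all genes. Of 24 citrate cycle genes 13 were called higher in aorta and 3 higher in muscle (median 0.69; 20 and 2 under library size alone), and of 53 respiratory chain genes 18 and 2 (median 0.42), with 33 not called. Under library size alone those chain counts were 47 and 1, with a median of 1.32. Of 11 ATP synthase genes, 1 was called higher in aorta (Atp5b) and 3 higher in muscle (median -0.17, or 0.69 with counts of 6 and 2 under library size alone). Within the chain, 1 of 3 sets of paired cytochrome oxidase forms went separate ways. Cox6a1, the general form, read 4024, 3466, 2308 and 3945 CPM in aorta and 77.4, 156, 117 and 109.6 CPM in muscle (log2 fold change 4.90, SE 0.32). Cox6a2, the heart and muscle form, read 1441, 1262, 1558 and 1443 CPM in muscle and 32.7, 23.4, 0.216 and 0.428 CPM in aorta (log2 fold change -6.62, SE 1.23), where libraries 1 and 2 were highest (log2 fold change -12.30 without them). Cox7a1 read 817, 578, 1001 and 770.3 CPM in aorta and 502, 549, 608 and 662 CPM in muscle, and Cox7a2 1200.4, 1491, 477 and 819.5 CPM and 347, 717, 899 and 412 CPM. Neither was called, and their groups overlap. Cox8b, a muscle and brown fat form, was called higher in aorta (5695, 4796, 5008 and 4887 against 1799.7, 2322, 2571 and 2039 CPM), and so was Cox8a, the general form (45.3 to 114 against 3.59 to 6.8 CPM).

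**Figure D5:**
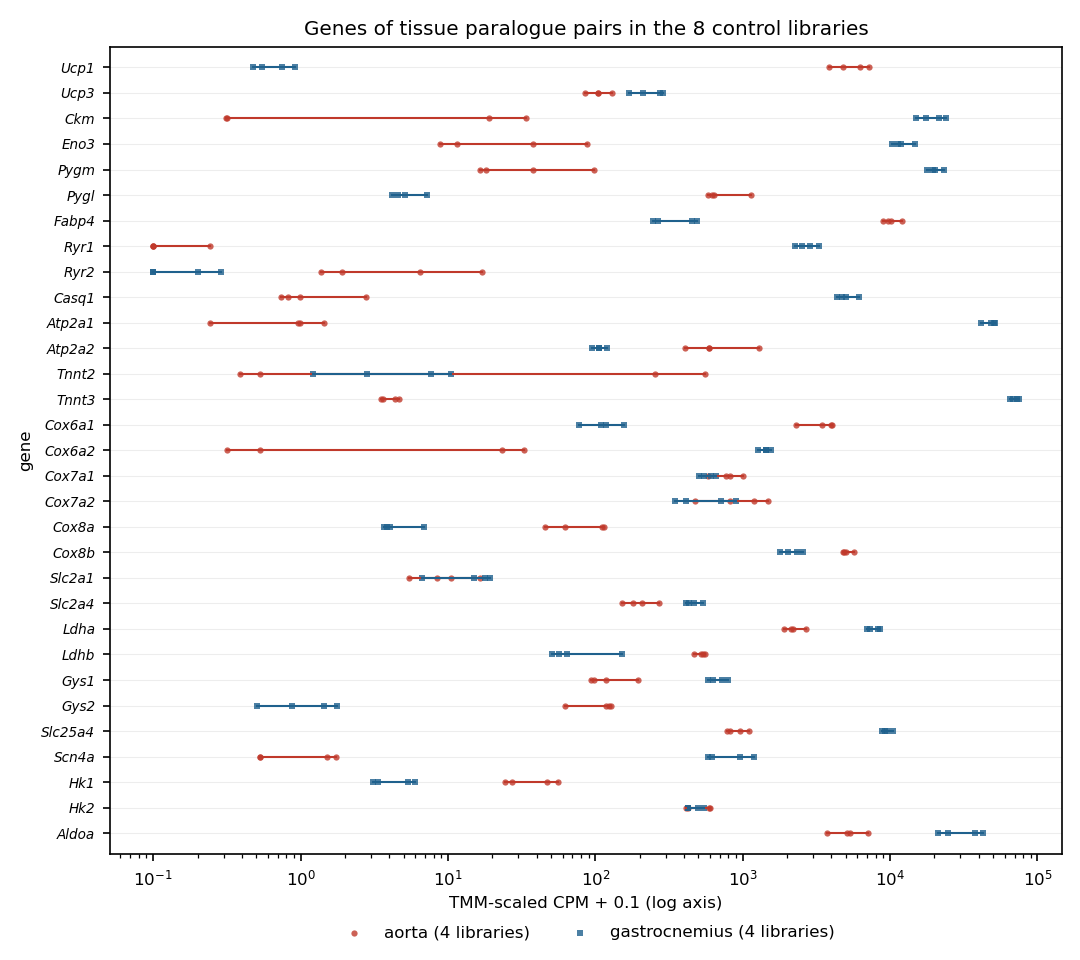
Levels of 31 of the 47 tested genes from pairs and trios of related forms, those named in the text, in the 8 control libraries (TMM-scaled CPM plus 0.1, log axis; each point is 1 library, and the line spans the lowest to the highest library). Of the 31 genes, 12 were called higher in aorta and 15 higher in muscle, and Cox7a1, Hk2 and Slc2a1 overlap between the tissues.

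Energy buffers followed muscle. Of 15 creatine and adenylate genes, 9 were called higher in muscle and 3 higher in aorta (median -3.0). Ckm, the creatine kinase of the fibre, read 23806, 14991, 17503 and 21323 CPM in muscle (log2 fold change -10.48, SE 1.51, or -16.40 without aorta libraries 1 and 2, which had most of its aorta counts). Without them 10 of 16 genes of the list were called higher in muscle and 3 higher in aorta (median -2.78). Ckmt2, the mitochondrial form, read 1212, 1217, 1779 and 1465 CPM against 69.2, 35.8, 0.144 and 0 CPM in aorta. Ampd1, the AMP deaminase of fast fibres, read 809.6 to 1362 CPM in muscle and 0 to 0.224 CPM in aorta. Slc25a4, the ADP/ATP carrier, read 9293, 9506, 10499.7 and 8759 CPM in muscle and 1109.5, 782, 823 and 959.7 CPM in aorta (log2 fold change -3.37, SE 0.23). Of 33 proteasome genes, 20 were called higher in muscle and 3 higher in aorta (median -0.83, or 0.03 with counts of 13 and 7 under library size alone). The 3 were Psmb8, Psmb9 and Psmb10, the subunits of the immunoproteasome, with Psmb8 at 64, 116, 94.2 and 60.3 CPM in aorta and 14.2, 32.4, 20.0 and 9.52 CPM in muscle.

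The genes shared at a high level were led by mitochondrial and glycolytic genes. With a rule of at least 500 CPM in each of the 8 libraries, 70 genes qualified. They made up 50.7% of the 138 genes that reached this level in all aorta libraries and 28.3% of the 247 that did in all muscle libraries, and held 15.3% to 17.2% of aorta and 10.1% to 11% of muscle CPM. By symbol, 33 of the 70 encode subunits of the respiratory chain, cytochrome c1 or ATP synthase. Of the 70, 21 were called higher in aorta and 10 higher in muscle, and of the 39 not called 38 lay within 1.5-fold. Aldoa, aldolase of glycolysis, had the highest floor of all, with 5360.2, 3754, 5135 and 7105 CPM in aorta and 42525, 24858, 21033 and 37462 CPM in muscle, and was called higher in muscle (log2 fold change -2.56, SE 0.32). Atp5b, the catalytic beta subunit of ATP synthase, read 4745, 5018, 6349.9 and 6075 CPM against 4039, 3151, 3895 and 4085 CPM (log2 fold change 0.55, SE 0.21), and Pkm, pyruvate kinase, 2659, 2215, 2005 and 2632 CPM against 7021, 7283, 5392 and 8112 CPM.

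Among the 38 within 1.5-fold were enzymes that both tissues need for respiration. Cs, citrate synthase at the entry of the cycle, read 1441, 1452, 1797 and 2183 CPM in aorta and 1459, 1149, 1248 and 1719 CPM in muscle (log2 fold change 0.30, SE 0.23, adjusted p = 0.273). Atp5a1, the alpha subunit of ATP synthase, read 3200.3, 2455, 2200.0 and 3191 CPM and 2855, 2871, 3231 and 3473 CPM (log2 fold change -0.17, SE 0.21). Ndufs3, a core subunit of complex I, read 1191, 995, 1362 and 1674 CPM and 1339, 1168, 1272 and 1364 CPM (log2 fold change 0.02, SE 0.21). In all 3 the groups overlap. Car3 and Chchd10, a mitochondrial protein of the intermembrane space, also belonged here, as did Ctsd, the lysosomal protease cathepsin D (1606 to 3474 against 1401 to 2315 CPM). A p above the threshold does not show equal levels: for Cs the 95% interval of the log2 fold change was -0.20 to 0.80, and for Ndufs3 -0.44 to 0.49. Under library size alone 35 of the 38 would be called higher in aorta, with a median of 0.95, so their likeness holds relative to the bulk of genes and not per count of the library.

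Some genes were read in 1 tissue only, with no count in the 4 libraries of the other and at least 1 CPM of the library total in each of the 4: 26 in aorta and 20 in muscle. The aorta set was led by Slc27a2, the mesothelial genes Lrrn4, Upk1b and Wt1, and Dnajc22, Ncan, Cpn2 and Igsf21. Wt1, a factor of the mesothelium, read 9.8, 14.4, 20.7 and 3.85 CPM in aorta (at least 148-fold higher in aorta), with library 3 highest. The muscle set was led by Cacna1s, Jsrp1, Myod1, Ctxn3, Casr, Smtnl1, Chrna1 and Chrne. Casr, the calcium-sensing receptor, read 97.9, 39.3, 36.6 and 69.5 CPM in muscle (at least 924-fold higher in muscle). Smtnl1, a smoothelin-like protein of muscle, read 19.8, 45.5, 82.4 and 41.4 CPM (at least 856-fold higher in muscle). A gene with no count may also be one whose amplicon was not counted, since some common genes were near 0 in both tissues, such as Rplp0 at 1.06 to 2.35 CPM in aorta and 0.672 to 1.12 CPM in muscle.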

How the data were processed

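Counts per gene were analysed for 8 libraries. The authors deposited raw read counts per gene, 1 table a library, and per the submitters' processing notes used STAR 2.5.2b on mm10 (GRCm38.p6), with edgeR 3.28.1 and limma 3.42.2 also named. Counts on either strand were used, and the 4 summary lines that name no gene were dropped, so that 86.7% to 91.1% of reads entered. The reads carry no molecular identifiers, so intervals and floors cover counting error only. Per the file layout, reads that map to several places are not in the gene counts, so genes with near-identical copies can stand near 0.

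Here, edgeR 4.0.16 filtered genes with filterByExpr (10 counts, 15 in total), scaled with TMM and ran the quasi-likelihood test on 4 aorta against 4 muscle libraries. The Benjamini-Hochberg adjustment ran over all 11058 genes tested, and SEs were derived from each gene's fitted log2 value and its F statistic. In simulated counts for 11058 genes, 100 genes were changed 4-fold and another 100 were changed 2-fold. The test found 77% of the former and 13% of the latter. Far fewer genes differed there than the 58.4% called here, and the adjusted p depends on that share. These rates therefore do not give the power of the real comparison. Alternatives were other scalings, no filter, DESeq2 1.42.0, all 13 libraries, single strands, replicate blocks, and left-out libraries. The split by first-strand share was added after seeing the data.

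Members and gene lists were chosen with earlier results of these data known. Named genes are the fixed markers; the 12 widest folds each way among called genes with non-overlapping groups and at least 100 CPM; of each list up to 4 such members each way at 10 CPM or more and the 2 most-read members not called; all tissue paralogues; the 15 shared genes with the highest lowest-library level and up to 10 of those not called within 1.5-fold; and the 8 most-read genes each way in 1 tissue only. Acaa2, Acadvl, Agt, Asph, Dpp4, Fgf21, Fkbp1a, Fmod, Gata6, Hoxa10, Hoxb4, Hoxb7, Hoxb8, Hoxc11, Lhx8, Ly6a, Mpc1, Mustn1, Ppargc1a, Prdm16, Scd1, Slc16a1, Slc25a20, Slc36a2, Tbx18, Tbx4, Trim63, Ttn and Zic1 were named after their values were seen. Results for some genes are not reported here. Titles number the libraries, and same-numbered pairs correlated at -0.29, 0.30, -0.29 and 0.24 in their deviations from the group means. In the deposited names 3 aorta and 3 muscle libraries share a number, and these pairs correlated at 0.26, 0.28 and 0.24, though unmatched pairs reached 0.30. Every aorta and muscle pair on the same side of the first-strand split correlated positively, and every other pair negatively. These correlations therefore cannot show whether either number pairs the samples.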

Additional observations from a re-analysis of the deposited data

Results flagged for a closer look

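In each tissue the value farthest from the other 3 was compared with the spread of all 4 by Dixon's ratio, for 190 of the genes named here. In 9 groups 3 of the 4 values were 0, so that the ratio passes whatever the fourth is. Of the other 351 groups, 26 had a library past the 95% critical value for 4 values. Chance gives about 1 in 20 groups (the groups are not independent, since genes share libraries). In aorta library 1 the value set apart was that of Aqp4 (0.299 CPM, others 0), Casq1 (2.69 CPM), Myf6 (0.0748 CPM, others 0), Myh7 (0.224 CPM, others 0), Psmb10 (21.7 CPM), Thbs4 (1.5 CPM) and Tpm2 (29 CPM). In aorta library 2 the value set apart was that of Tagln (0.056 CPM, others 0) and Utrn (47 CPM). In aorta library 3 the value set apart was that of Chrnb1 (14.2 CPM), Fmod (51.4 CPM), Gys2 (62.6 CPM), Hoxa10 (0.0721 CPM, others 0), Itga8 (43.8 CPM), Lrrn4 (71.3 CPM), Msln (107 CPM), Ryr1 (0.144 CPM, others 0), Upk1b (52.1 CPM), Upk3b (168 CPM) and Zic1 (0.144 CPM, others 0). In aorta library 4 the value set apart was that of Atp1b2 (23.3 CPM), Nr4a1 (39.8 CPM), Plin4 (318 CPM), Prdm16 (34.2 CPM) and Pygl (1129.8 CPM). In muscle library 1 the value set apart was that of Lhx8 (0.187 CPM, others 0) and Tnni3 (0.933 CPM). In muscle library 2 the value set apart was that of Adipoq (9.08 CPM), Itpr2 (20.6 CPM), Ms4a1 (3.36 CPM), Msln (3.36 CPM) and Upk3b (0.56 CPM, others 0). In muscle library 3 the value set apart was that of Cox8a (6.8 CPM) and Ldhb (152 CPM). In muscle library 4 the value set apart was that of Col1a1 (592 CPM). The mesothelial genes Upk3b, Upk1b, Lrrn4 and Msln were all set apart in aorta library 3, and the fat gene Adipoq in muscle library 2. The part of mesothelium or fat carried along with the sample in these differences was not tested.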

How the results depend on the processing

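Scaled by library size alone, 6254 genes were called higher in aorta and 1298 higher in muscle, 2737 and 582 of them at least 4-fold. Under every other setting run these 4 counts stayed within 1.5 times of their values in the report. Leaving out 1 library gave 3155 to 3389 and 2816 to 3051 genes, and 1280 to 1612 and 942 to 989 at least 4-fold. With a replicate block on the title number the counts were 3111, 2768, 1335 and 956. With a replicate block on the number in the deposited names they were 3123, 3063, 1378 and 984, where libraries without a partner add nothing. Levels of 100 and 1000 CPM gave 560 and 20 genes high in both tissues. Of genes read in 1 tissue only, a level of 5 CPM left 8 in aorta, leaving out 1 library gave 26 to 47 in aorta (47 without muscle library 2) and 20 to 29 in muscle, and leaving out aorta libraries 1 and 2 gave 75 in muscle. Of 159 named genes called, 138 were called in every setting that tested them.

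Directions that turned, as log2 fold changes, were of genes not called in the report apart from Fkbp1a, Myh6 and Tnnt2. Under library size alone they were 0.69 for Atp5a1, 0.79 for Car3, 0.47 for Chchd10, 0.28 for Col1a1, 0.74 for Dpt, 0.37 for Fkbp1a, 0.64 for Gpam, 0.70 for Lpin1, 0.013 for Ppargc1a and 0.39 for Slc2a1. With upper-quartile factors they were 0.081 for Atp5a1, 0.19 for Car3, 0.11 for Dpt, 0.029 for Gpam and 0.097 for Lpin1. Without aorta libraries 1 and 2 they were 0.39 for Car3, -0.22 for Hk2, 0.13 for Lpin1, -0.038 for Lyve1, -1.01 for Myh6, -0.68 for Pdgfra and -4.03 for Tnnt2. In the 4 libraries above 48% first-strand reads they were 0.056 for Dpt, 0.0021 for Lpin1, -0.50 for Myh11, -0.18 for Ndufs3, -0.16 for Plin4 and -0.0065 for Plvap. In the 4 below 48% they were 1.10 for Car3, -0.23 for Hk2 and -0.040 for Pdgfra. With the block on the deposited-name number they were 0.42 for Car3, -0.18 for Pdgfra and -0.010 for Plin4. With the block on the title number they were -0.0020 for Ndufs3 and -0.058 for Plin4. Counting the first strand alone gave 0.15 for Dpt. Counting the second strand alone gave 0.13 for Car3, -0.30 for Myh11 and -0.035 for Plin4. The strand split as a covariate gave -0.016 for Plin4. DESeq2 gave -0.0079 for Ndufs3. DESeq2 size factors in edgeR gave -0.0022 for Ndufs3. Fitting with no filter gave -0.0076 for Ndufs3. Leaving out 1 library, the ranges were Car3 from -0.31 to 0.15, Col1a1 from -0.93 to 0.32, Dpt from -0.46 to 0.026, Lpin1 from -0.44 to 0.17, Lyve1 from -0.083 to 0.62, Myh11 from -0.15 to 0.27, Ndufs3 from -0.15 to 0.13, Pdgfra from -0.32 to 0.34 and Plin4 from -0.62 to 0.39. The cause was not tested. Aorta library 4 has the fewest counts, so genes low in aorta are least precise there.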

Other observations

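Immediate early genes, which tissue handling and activity switch on within minutes, were called higher in muscle in 7 of 21 tested and higher in aorta in 2, beside 27.5% and 31.0% of all genes tested (median -0.04; 3 and 8 under library size alone, median 0.80; 6 and 6 of 23 without aorta libraries 1 and 2). Nr4a1, a nuclear receptor induced by contraction, read 407, 229, 188 and 462 CPM in muscle and 4.71, 6.33, 9.09 and 39.8 CPM in aorta. Fos, a subunit of the factor AP-1, read 50.9, 78.2, 42.2 and 78.5 CPM against 3.97, 5.04, 9.16 and 10.3 CPM. The tissues did not overlap for Nr4a1 or Fos, and Ier2 was among the 2 higher in aorta (11.1 to 18.8 against 4.29 to 10.0 CPM). Of 17 ribosomal protein genes tested, 5 were called higher in muscle and none higher in aorta (1 and 8 under library size alone). Rpl3l, a form of the ribosomal protein L3 found in heart and skeletal muscle, read 702, 547, 620.0 and 589 CPM in muscle and 1.87, 0.784, 0.433 and 0 CPM in aorta, where libraries 1 and 2 were highest, as for Myh6. Of 16 forkhead genes 7 were called higher in muscle and 3 higher in aorta (3 and 8 under library size alone).

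Of 7 mast cell genes 3 were called higher in aorta (7 under library size alone), with Kit, the receptor of these cells, at 18.8, 16.1, 9.23 and 11.6 CPM in aorta and 1.31, 1.57, 1.42 and 0.901 CPM in muscle. Of 8 Schwann cell genes, 2 were called higher in aorta and 1 higher in muscle (5 and 1 under library size alone), and S100b, a calcium-binding protein of these cells, read 83.4, 87.2, 70.5 and 54.1 CPM in aorta and 1.87, 1.34, 1.22 and 3.6 CPM in muscle. Mpc1, a subunit of the carrier that brings pyruvate into mitochondria, read 7.03, 4.65, 4.4 and 1.28 CPM in aorta and 0 in each muscle library (chosen after its values were seen). Of 11 genes often used as references, 7 were called higher in aorta and 2 higher in muscle.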
